A study of Mus musculus with 6 samples.

Results

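Transcripts of 10 genes of the circadian clock were measured by 14 probe sets, out of 45101 probe sets on each array, in neutrophils from mouse bone marrow. The members were chosen by gene: Clock and Arntl, Per1, Per2 and Per3, Cry1, Nr1d1 and Nr1d2, Dbp, and Bhlhe40, each through the probe set numbers assigned to it. They were chosen with the null and wild-type values of these same arrays in view, so their differences between the groups, and whether they pass the threshold of a fit across all probe sets, are given as a description and support nothing. Each probe set combines several short probes for the same transcript. A level can be compared between arrays for the same probe set but not between probe sets.

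The study compared 3 arrays of miR-223 null neutrophils with 3 arrays of wild-type neutrophils, all labelled as isolated straight from mice by magnetic sorting on Gr-1. No agent was given to either group in the labels, and the labels used here name no strain, age, sex or hour of collection. Nor do they state that each array had an animal of its own, so the spread within a group, on which the p-values rest, may be partly technical. Gr-1 antibodies also bind some monocytes. No table at hand paired other probe sets with genes, so markers of neutrophils and of other bone marrow cells, the miR-223 gene itself and further clock-pathway genes were not analysed here. In bulk RNA, fewer cells of a type and less RNA per cell cannot be told apart. The deposited values are on the log2 scale, with array medians between 4.81 and 4.84.

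The clock is a loop of transcription factors. CLOCK and BMAL1, the product of Arntl, pair through basic helix-loop-helix and PAS domains and switch on genes that carry an E-box, among them the Per and Cry genes, the Nr1d genes, Dbp and Bhlhe40. PER and CRY proteins then inhibit that pair, and the REV-ERB receptors encoded by Nr1d1 and Nr1d2 repress Arntl through ROR response elements. In neutrophils the clock is known to time their ageing in the circulation and their movement into tissues.

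miR-223 is a microRNA that is abundant in myeloid cells and lowers transcripts that pair with its seed. Its mature 3p strand (RefSeq, GRCm38.p6, chrX:96242884-96242905, plus strand) is shown because it is the molecule that the null mice lack, with the seed, bases 2 to 8, in capitals. Whether the transcripts described here carry a match to this seed was not examined, since no 3′ untranslated sequence was used here.
mmu-miR-223-3p: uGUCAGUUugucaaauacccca

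Windows from 250 bases before to 50 bases after a transcription start were taken from RefSeq (GRCm38.p6) and matched by symbol to 8 of the 10 genes, with 12 windows in all because some genes have several starts. Each was searched on both strands for the E-box CACGTG bound by CLOCK and BMAL1, for the D-box TTATGNAA bound by DBP, and for the core TAGGTCA of the ROR response element. Of 32851 such windows in the whole table, 7.15% held the E-box, 3.38% the D-box and 2.61% the ROR core. The windows below belong to the gene with the largest difference and to the genes whose windows held an E-box or ROR core, and capitals mark the matches, which did not overlap each other.
Clock (chr5:76304743-76305042, minus strand): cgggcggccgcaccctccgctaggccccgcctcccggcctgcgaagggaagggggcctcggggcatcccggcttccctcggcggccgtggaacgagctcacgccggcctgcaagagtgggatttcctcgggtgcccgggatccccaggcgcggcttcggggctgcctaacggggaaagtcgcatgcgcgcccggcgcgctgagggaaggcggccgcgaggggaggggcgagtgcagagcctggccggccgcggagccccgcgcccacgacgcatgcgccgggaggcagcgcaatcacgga
Arntl (chr7:113207261-113207560, plus strand): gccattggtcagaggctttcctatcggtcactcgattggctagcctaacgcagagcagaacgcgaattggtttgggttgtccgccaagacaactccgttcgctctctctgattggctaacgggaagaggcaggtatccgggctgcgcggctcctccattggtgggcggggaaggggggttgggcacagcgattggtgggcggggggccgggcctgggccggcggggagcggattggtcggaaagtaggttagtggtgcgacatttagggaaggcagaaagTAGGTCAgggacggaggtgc
Per1 (chr11:69098699-69098998, plus strand): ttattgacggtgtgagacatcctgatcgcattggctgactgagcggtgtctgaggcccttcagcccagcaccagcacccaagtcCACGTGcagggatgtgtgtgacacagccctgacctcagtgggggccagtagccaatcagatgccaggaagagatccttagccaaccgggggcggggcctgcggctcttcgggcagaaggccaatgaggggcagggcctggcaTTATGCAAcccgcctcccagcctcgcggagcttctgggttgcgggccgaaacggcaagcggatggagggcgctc
Cry1 (chr10:85185005-85185304, minus strand): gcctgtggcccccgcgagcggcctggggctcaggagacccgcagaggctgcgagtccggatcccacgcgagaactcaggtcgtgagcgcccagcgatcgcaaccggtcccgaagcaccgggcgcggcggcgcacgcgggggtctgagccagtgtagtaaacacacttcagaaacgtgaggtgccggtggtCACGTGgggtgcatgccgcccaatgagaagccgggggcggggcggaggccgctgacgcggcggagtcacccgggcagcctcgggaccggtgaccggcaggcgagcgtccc

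The Clock window printed above held none of the 3 motifs, and neither did the other windows of Clock. The Arntl window held the ROR core at base 281, just inside the transcribed part, whereas the window of the other Arntl start ended before it. Only the exact letters TAGGTCA were sought, so a ROR response element with other letters in either window would be missed. The Per1 window held an E-box at base 85 and a D-box at base 227, and the window of the other Per1 start held none of the motifs. The Cry1 window held an E-box at base 191. The Per3 window held the D-box at bases 46 and 93. No match was found in the windows of Nr1d1, Nr1d2 and Dbp, which says only that these letters are not within these windows.

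Clock was higher on every null array than on any wild-type array, and its group means differed by 2.10 log2 units. For the other 9 genes of the loop the group means of all 6 arrays lay within a 2-fold difference. For Per1 that estimate was imprecise, at −0.87 log2 units with a standard error of 0.47, so a larger difference is not excluded. Of the 14 probe sets, 12 reached the filter, a 6-array mean of 4.83, and entered the fit across 22519 probe sets. Of these 12, 1 passed an adjusted p of 0.05 (limma, Benjamini-Hochberg), the Clock probe set, which was higher in null neutrophils, against 3.84% of all tested probe sets in either direction and 2.78% upward. No member passed downward, against 1.06% of all tested probe sets. The median size of the log2 difference was 0.19 over the 12 and 0.14 over all tested probe sets. The groups did not overlap for 4 of the 12, 2 higher and 2 lower in null neutrophils, against 24.6% of all tested probe sets, 12.8% higher and 11.8% lower. Since the same contrast was in view when the genes were chosen, nothing is read from these shares.

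**Figure D1:**
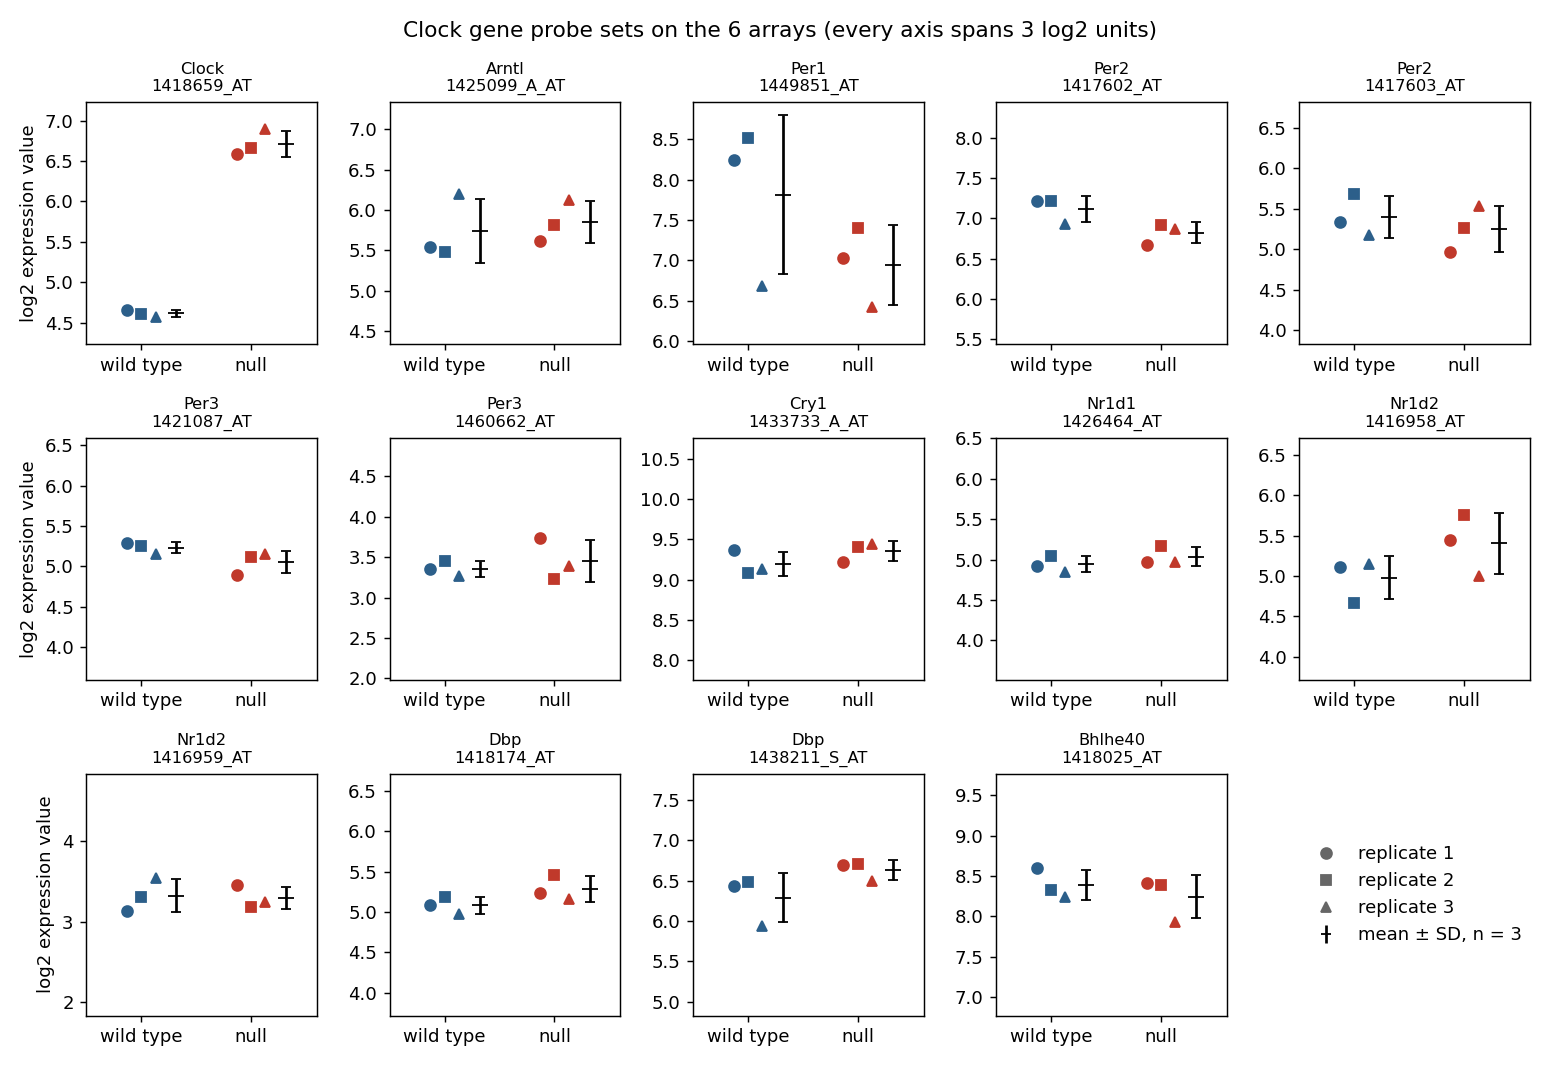
Log2 expression value of each of the 14 clock gene probe sets on the 3 wild-type arrays (blue) and the 3 null arrays (red), with marker shape giving the replicate number and black bars the group mean ± SD. Every panel spans the same height, and Clock stands out, at 4.57 to 4.66 in wild-type and 6.58 to 6.90 in null neutrophils.

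Clock encodes the activator that pairs with BMAL1. Its probe set had log2 values of 6.58, 6.66 and 6.90 on null replicates 1, 2 and 3 and of 4.66, 4.61 and 4.57 on wild-type replicates 1, 2 and 3. All null arrays were high and all wild-type arrays low, and the lowest null value exceeded the highest wild-type value by 1.92 log2 units. The group means were 6.71 ± 0.16 and 4.61 ± 0.04 (SD, n = 3 each). The log2 difference was 2.10 (standard error 0.12), a ratio of 4.28 between the deposited levels, which is not an exact fold because the wild-type level is dim. It was the 4th largest rise among the 22519 tested probe sets. The wild-type arrays agreed within 0.08 log2 units and the null arrays within 0.31.

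The wild-type values of Clock lay below the filter of 4.83, so this probe set entered the fit only because of its null values. No detection calls were used here, and whether Clock transcript was detected in wild-type neutrophils is therefore not known. With an offset of 16 added on the linear scale, which damps differences between dim values, the log2 difference was 1.58.

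**Figure D2:**
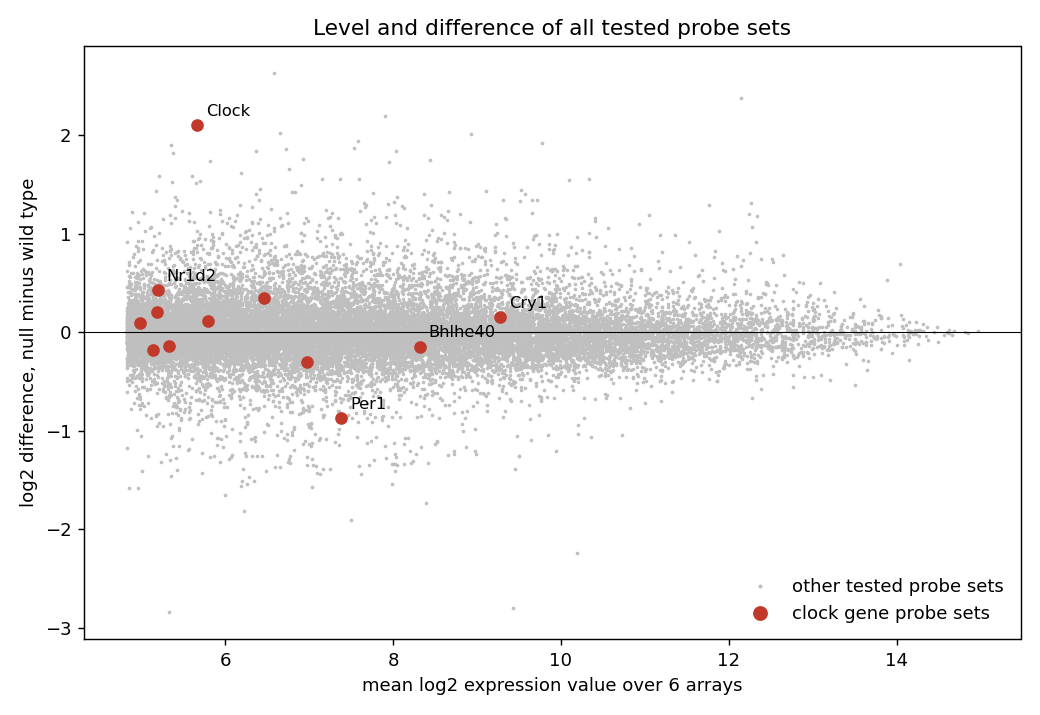
Log2 difference, null minus wild type, against the mean log2 value over the 6 arrays for the 22519 tested probe sets (grey) and the 12 clock gene probe sets among them (red). Clock lies at a mean of 5.66 and a difference of 2.10, Per1 at 7.38 and −0.87, and the other 10 red points between −0.30 and 0.43.

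Arntl encodes BMAL1, the partner of CLOCK. Its probe set 1425099_A_AT had log2 values of 5.61, 5.82 and 6.12 on null replicates 1 to 3 and of 5.55, 5.48 and 6.20 on wild-type replicates 1 to 3. The groups overlapped, and the highest array of each group was its replicate 3. The log2 difference was 0.11 with a standard error of 0.22, against the 2.10 of Clock.

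The period genes encode inhibitors of the CLOCK and BMAL1 pair. The null mean was lower on 4 of their 5 probe sets, none past the threshold. Probe sets of the same gene are not independent, and the share of all tested probe sets with a lower null mean was not taken. Nothing is read from that count. Per1 (1449851_AT) had log2 values of 7.03, 7.40 and 6.42 on null replicates 1 to 3 and of 8.24, 8.51 and 6.69 on wild-type replicates 1 to 3. Wild-type replicates 1 and 2 lay above every null array, but wild-type replicate 3 lay within the null range, so the groups overlapped. The means were 6.95 ± 0.49 in null and 7.81 ± 0.98 in wild-type neutrophils (SD, n = 3 each). The log2 difference was −0.87 (standard error 0.47), a wild-type level 1.82-fold that of the null, and it did not pass the threshold. Leaving out wild-type replicate 3 gave a log2 difference of −1.43 and leaving out wild-type replicate 2 gave −0.52, neither past the threshold (limma).

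Per1 was the member that varied most within the groups. Its SD within groups, 0.78 log2 units, was at percentile 99.5 of all tested probe sets, of which 106 varied more. The SD within groups was 0.12 for Clock, at percentile 33.6, and 0.34 for Arntl, at percentile 90.1. Over the 12 tested members its median was 0.19, against 0.15 over all tested probe sets.

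Per2 was represented by 2 probe sets. On 1417602_AT the null arrays read 6.68, 6.92 and 6.87 and the wild-type arrays 7.21, 7.21 and 6.93 (log2, replicates 1 to 3). All null values were below the wild-type values, though the gap between the groups was only 0.01, and the log2 difference was −0.30 with a standard error of 0.13. The other probe set, 1417603_AT, overlapped between the groups, with null values of 4.97 to 5.54, wild-type values of 5.18 to 5.68 and a log2 difference of −0.14 with a standard error of 0.19. Per3 also had 2 probe sets. On 1421087_AT the null arrays read 4.90, 5.11 and 5.15 and the wild-type arrays 5.29, 5.25 and 5.16 (log2, replicates 1 to 3), a difference of −0.18 with a standard error of 0.11. The groups were apart by 0.01. The other, 1460662_AT, lay at 3.23 to 3.73 on all arrays, below the filter, with overlapping groups. Neither gene passed the threshold on any of these probe sets.

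Cry1 encodes a cryptochrome, which inhibits the activators together with PER. On 1433733_A_AT it had log2 values of 9.22, 9.41 and 9.44 on null replicates 1 to 3 and of 9.36, 9.08 and 9.14 on wild-type replicates 1 to 3. The highest wild-type array lay within the null range. The log2 difference was 0.16 with a standard error of 0.11.

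Bhlhe40 encodes a helix-loop-helix repressor, also called DEC1, that binds E-boxes in competition with CLOCK and BMAL1. On 1418025_AT the null arrays read 8.41, 8.39 and 7.93 and the wild-type arrays 8.60, 8.32 and 8.24 (log2, replicates 1 to 3). The groups overlapped, and the difference was −0.14 with a standard error of 0.16.

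The REV-ERB receptor genes were near the filter level on these arrays. Nr1d1 (1426464_AT) had log2 values of 4.97, 5.17 and 4.97 on null replicates 1 to 3 and of 4.92, 5.05 and 4.85 on wild-type replicates 1 to 3, a difference of 0.09 with a standard error of 0.11. Nr1d2 (1416958_AT) had null values of 5.45, 5.76 and 5.004 and wild-type values of 5.12, 4.67 and 5.15. Null replicates 1 and 2 lay above every wild-type array and null replicate 3 within their range, and the log2 difference was 0.43 with a standard error of 0.22. The other Nr1d2 probe set, 1416959_AT, lay at 3.13 to 3.54 on all arrays, below the filter, and differed by −0.03.

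Dbp encodes an output factor of the clock that binds D-boxes, and both of its probe sets had higher null means. On 1438211_S_AT the null arrays read 6.69, 6.71 and 6.49 and the wild-type arrays 6.44, 6.49 and 5.94 (log2, replicates 1 to 3). The groups did not overlap, but null replicate 3 exceeded wild-type replicate 2 by only 0.01. The log2 difference was 0.34 with a standard error of 0.17. The suffix of this probe set marks probes that can detect more than a single transcript or gene. On 1418174_AT the null values ran from 5.16 to 5.46 and the wild-type values from 4.97 to 5.19, overlapping, with a log2 difference of 0.20 and a standard error of 0.12. Neither passed the threshold.

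For 6 of the 12 tested members the array numbered 3 held the same extreme of both groups, the highest for Arntl and the lowest for probe sets of Per1, Dbp, Bhlhe40 and Nr1d1. This pattern was noticed after the values were seen. Within both groups, replicate 3 was the highest array for Arntl, at 0.27 above the null mean and 0.46 above the wild-type mean on the log2 scale. Within both groups it was the lowest array for Per1, at −0.53 and −1.12 from the null and wild-type means. The same held for Dbp on 1438211_S_AT, at −0.14 and −0.35, and on 1418174_AT, at −0.12 and −0.11. It also held for Bhlhe40, at −0.31 and −0.15. For Nr1d1 the deviations were −0.07 and −0.09, but null replicates 1 and 3 were nearly level, at 4.969 and 4.965. Replicate 3 was thus the lowest array of both groups for 5 of the 12 tested members and the highest of both for 1, against 18.3% and 13.7% of all tested probe sets. Since replicate 3 was picked from these same values, nothing is read from these shares. The other 6 tested members did not share the pattern. Clock had its highest null value and its lowest wild-type value on replicate 3, as did Per2 on 1417603_AT (0.28 and −0.22 from the group means) and Per3 on 1421087_AT (0.10 and −0.07). Nr1d2 on 1416958_AT had the reverse, at −0.40 and 0.17. For Cry1 replicate 3 deviated by 0.08 and −0.06, and for Per2 on 1417602_AT by 0.05 and −0.18.

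**Figure D3:**
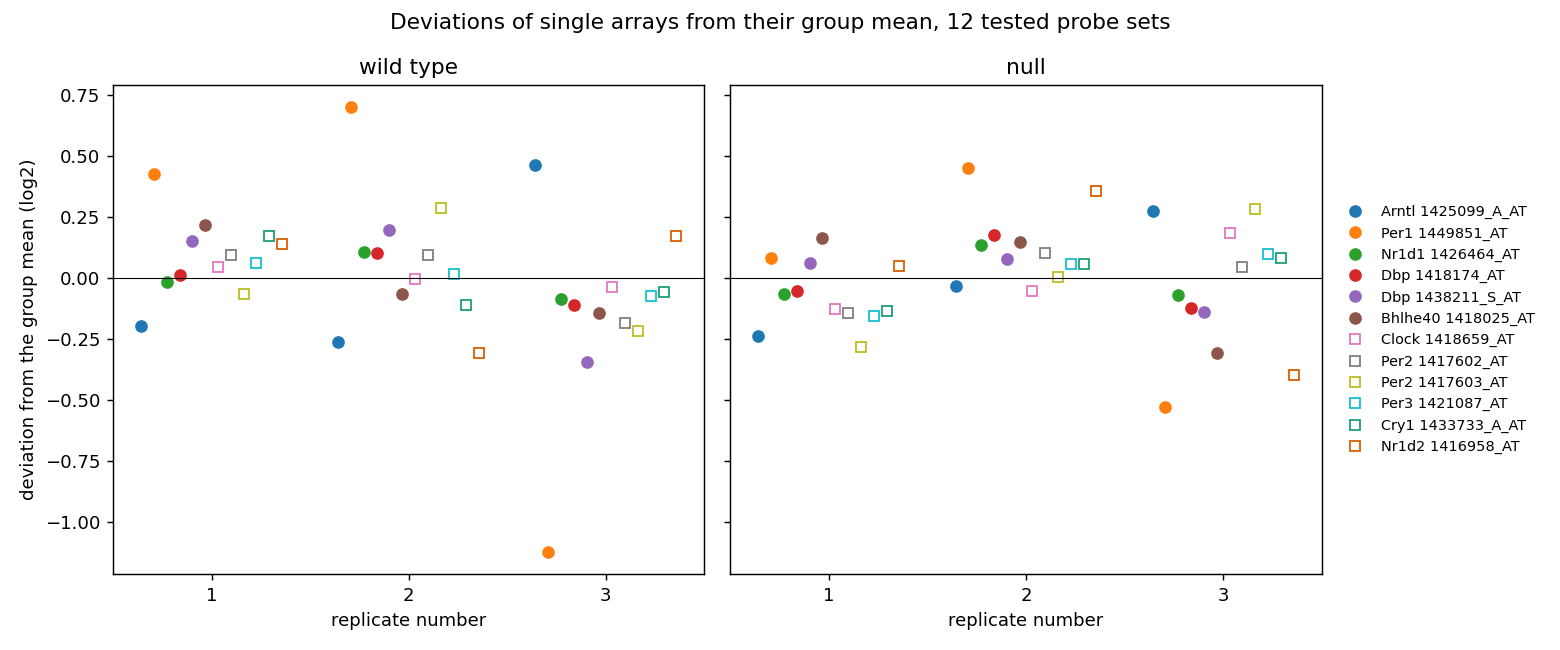
Deviation of each array from its own group mean, in log2 units, by replicate number in wild-type (left) and null (right) neutrophils, for the 12 tested probe sets. Filled circles mark Arntl and the 5 probe sets with their lowest value in both groups on replicate 3, and open squares the other 6; Per1 deviates most, at −1.12 on wild-type replicate 3.

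A grouping by brightness was also made from the mean of 18 hybridization control probe sets, which are not mouse transcripts. A cut at the largest gap between arrays, 0.13 log2 units, gave 2 groups, called technical sets here. Such a cut gives 2 groups whatever the values, and the labels name no batch. Whether these groups reflect a real batch was not tested. The brighter set held null replicates 1 and 2 and wild-type replicate 1 (10.94 to 10.98), and the dimmer set null replicate 3 and wild-type replicates 2 and 3 (10.72 to 10.81). In a model with group and set, the set passed the threshold for 0 of the 12 tested members (limma, lowest adjusted p = 0.0679, for Bhlhe40), against 1.94% of all tested probe sets. Bhlhe40 was higher in the brighter set by 0.39 log2 units with a standard error of 0.09. Without wild-type replicate 2, the dimmer set held only the arrays numbered 3. That fit therefore repeats a contrast already noticed in these same values, and its calls support nothing. In it 2 members passed, Per1 with 1.12 (limma adjusted p = 0.0266) and Bhlhe40 with 0.42 (limma adjusted p = 0.0450). The share of all tested probe sets that it called was not taken. With all 6 arrays in the fit, the dimmer set held both arrays numbered 3 and also wild-type replicate 2. That array had the highest Per1 and the lowest Arntl value of all 6 arrays. The part of the technical sets in the pattern of the arrays numbered 3 was not tested.

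Clock differed between null and wild type by a similar amount within each technical set. The log2 difference was 1.96 in the brighter set, from 2 null arrays and 1 wild-type array, and 2.31 in the dimmer set, from 1 null array and 2 wild-type arrays. Per1 differed by −1.03 and −1.18, Dbp on 1438211_S_AT by 0.26 and 0.28, and Arntl by 0.17 and 0.28. For Per2, Cry1 and Nr1d2, 1 probe set each (1417603_AT, 1433733_A_AT and 1416959_AT) had opposite signs in the 2 sets. When the fit took the set as a block, Clock was again the only member past the threshold, at 2.13 with a standard error of 0.13. In that fit 5.57% of all tested probe sets were called higher and 5.38% lower in null neutrophils, 11% together. With wild-type replicate 3 also left out of that fit, Per1 passed as well, at −1.48. Over all probe sets 2418 then passed, against 2466 with that array kept. The array left out held the lowest wild-type value of Per1, at 6.69 against 8.24 and 8.51 on wild-type replicates 1 and 2. Its removal was thus bound to widen the Per1 difference, and nothing is read from this call.

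**Figure D4:**
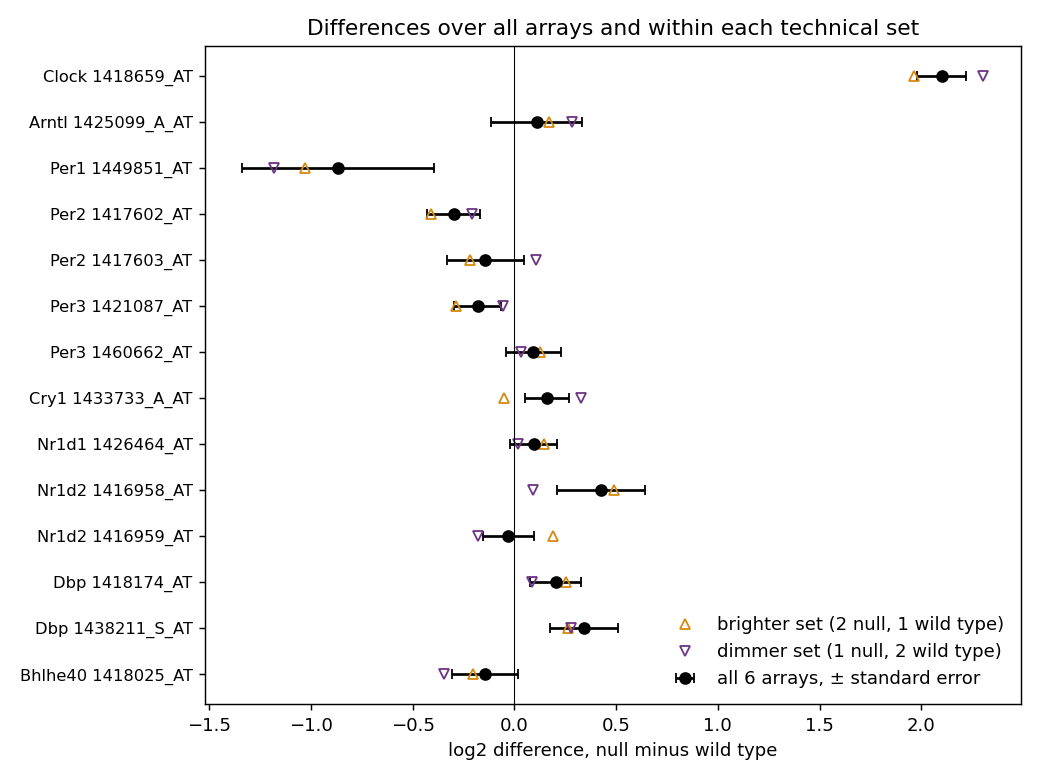
Log2 difference, null minus wild type, of the 14 probe sets over all 6 arrays (black, ± standard error) and within the brighter (orange) and dimmer (purple) technical set. The 3 Clock points lie between 1.96 and 2.31, and no point of another gene is farther from 0 than −1.18, for Per1.

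Probe sets with the pattern most like that of Clock over the 6 arrays were sought among the tested probe sets outside the set. The 5 closest had a Pearson correlation of 0.998 to 0.999 with the Clock probe set, with log2 differences of 0.68 to 1.25, all smaller than that of Clock. The closest were 1426682_AT, at 11.1 in null and 10.03 in wild-type neutrophils on average, and 1454658_AT, at 7.05 and 6.37. They carry no gene name here, and with 6 arrays in 2 separated groups such a correlation mostly reflects the difference between the groups. Among the members, the correlation with Clock over the 6 arrays ran from −0.75 for Per2 on 1417602_AT to 0.66 for Dbp on 1438211_S_AT, and it was 0.23 for Arntl.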

How the data were processed

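RNA from 6 samples was hybridized to Affymetrix arrays, 1 array each. The authors deposited log2 values for 45101 probe sets. GCOS is named per the submitters' processing notes, and how the authors corrected, normalized and summarised the probes is not given in the sources used here. Their scale was taken as log2 from the deposited range of 2.12 to 14.98. No further scaling was applied. Control probe sets (64) were left out, as were probe sets with a mean under the median of the means (4.83). The other 22519 entered a two-sided limma 3.58.1 fit (R 4.3.3) with a trended prior and group as the only term, with Benjamini-Hochberg adjustment and a threshold of 0.05. Values of members below the filter come from the fit without it. In simulated data the fit recovered 14.9%, 70.1% and 93.9% of changes of 0.5, 1 and 2 log2 units, with 6 false calls among 125. The simulation had independent normal noise, upward changes only and no technical set effect, so these rates need not hold for the arrays themselves.

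The technical sets were split at the largest gap in the hybridization controls. All 14 members are named, Clock through probe set 1418659_AT. The members and lists were chosen with earlier results of these data known. The planned lists of other clock-pathway genes and cell type markers were not matched to probe sets and have no values. Genes of the members come from the probe set assignments used to choose them. Alternatives were no filter, replicate block, technical set block, no trend, an offset of 16 and leaving out each array. Figures were drawn with matplotlib 3.10.9.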

Additional observations from a re-analysis of the deposited data

How the results depend on the processing

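The log2 difference of Clock ran from 1.58 (offset of 16) to 2.31 (technical set block, without wild-type replicate 1) over the 17 alternatives. Its call did not change, which supports nothing, since the members were chosen on this contrast and the probe set reached the filter through its null values. The count of called members was 1 under each alternative but the technical set block without wild-type replicate 3, where it was 2. The added member was Per1, whose lowest wild-type value was on the array left out, so nothing is read from its call. The count of members that followed the technical set was 0 under each alternative but without wild-type replicate 2, where it was 2. Nothing is read from that count. The share of all tested probe sets was not taken for that fit, in which the dimmer set held only the arrays numbered 3. Over all probe sets, 864 passed, against 700 with no filter, 607 with no trend, 863 with the offset and 2466 with the technical set block. Leaving out 1 array gave 85 to 592 without the block and 123 to 2909 with it, where 464 passed without null replicate 3 and 2418 without wild-type replicate 3. The replicate block gave 857 over all probe sets and changed no member's call. The labels pair no null array with a wild-type array, so the samples were treated as unpaired. Deviations correlated at 0.211, −0.124 and 0.371 for arrays numbered 1, 2 and 3. The arrays numbered 1 shared a technical set, as did those numbered 3, but those numbered 2 did not. These correlations therefore do not decide whether the arrays were paired. Signs held in all 17 alternatives for 8 of the 12 tested members, and not for Arntl, Per2 (1417603_AT), Cry1 and Bhlhe40. No filter, replicate block and no trend leave the log2 difference unchanged, so those alternatives could not alter a sign. The share of all tested probe sets that kept their sign was not taken. The cause of these changes was not tested. With 3 arrays a group, precision is limited. Over all tested probe sets the median standard error was 0.13, against a median size of difference of 0.14. Over the 12 members the standard error ran from 0.11 (Cry1) to 0.47 (Per1), against a median size of difference of 0.19.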
